A study of Mus musculus with 48 samples.

Results

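The comparison described here set the duodenum of 4 week old mice against the duodenum of 3 week old mice, the first week on solid chow after weaning. It used the 3 libraries labelled duodenum week 4 and the 3 labelled duodenum week 3, chosen by label alone, 6 of the 48 libraries of a series on the postnatal small intestine. All groups were C57BL/6J mice, and the labels name no mutation and no treatment, so age is the only labelled difference. Each library was total RNA of whole wall from 2 cm of gut taken directly below the stomach outlet, so epithelium, immune cells, vessels, muscle and nerves were measured together. Weaning was on day 21, when the pups left the dam for chow. Whether the 3 week old mice had already eaten chow is not stated in the labels. Age, the change of diet and the separation from the dam cannot be told apart in this comparison. The labels call the housing standard germ-free, and whether the animals were free of microbes was not settled from them. Both sexes were used, and a litter usually gave 2 or 3 ages, so libraries of different ages may come from littermates. The labels number the samples of a group 1 to 3 without saying that these are different animals, and p-values then measure only the spread between these samples. The same 2 ages in the ileum, 3 libraries each, were fitted together with the duodenum and are given only beside it.

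Weaning replaces milk, which carries fat, lactose and maternal antibody, with a diet of starch, plant material and protein. In the mouse it is known for the maturation of Paneth cells, the arrival of lymphocytes in epithelium and lamina propria, the onset of the animal's own IgA, and a period of immune activation called the weaning reaction. Interferons act on the epithelium through receptors whose signals lead transcription factors to short response elements in the promoters of their target genes. In bulk tissue, fewer cells of a type and less RNA per cell cannot be told apart, and this holds for every cell type named below.

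The labelled tissue was checked against its markers. Pdx1, whose protein specifies proximal gut and pancreas, stood at 17.5, 16.6 and 9.5 CPM (counts scaled to library size, as described under processing) in week 3 libraries 1, 2 and 3, and at 18.8, 1.6 and 15.4 CPM in week 4 libraries 1, 2 and 3. Week 4 library 2 was thus far below the others for Pdx1. Gata4, another proximal factor, had means of 112 ± 3.72 CPM at week 3 and 135 ± 13.8 CPM at week 4 (± SD, n = 3 each, as for every mean below), with library 2 in the middle of its group, and Onecut2 had means of 166 ± 7.81 and 187 ± 58 CPM. None of the 4 genes of this check list was called by edgeR or, among them, by DESeq2 (0 calls), and 0 had an unadjusted p under 0.05. Fabp6, the bile acid binding protein of the ileum, stayed at or below 0.608 CPM in all 6 libraries. Total counts ran from 31240661 to 59811501 at week 3 and from 34746176 to 46810435 at week 4, and mitochondrial transcripts took 17.9% to 23.7% and 21.8% to 26.3% of them. Spearman correlations between libraries of a group were 0.979 to 0.987.

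Sex was not balanced. Xist, the RNA of the inactive X chromosome, was present in week 3 library 1 and in all week 4 libraries, while Ddx3y, a Y-linked helicase gene, marked week 3 libraries 2 and 3. Week 3 therefore held 1 female and 2 male samples by these genes and week 4 held 3 female samples. Age and sex therefore overlap in part. A fit with a sex index from Xist and Ddx3y as covariate called 2129 genes, against 1868 without it (below). Only 1435 genes were called in both, so part of the calls changed with the sex index. The counts of lists with calls are also given for a fit that kept only female libraries, with week 3 represented by library 1. The latter was added after seeing the data and assumes that the lone library varies like the other groups.

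Of 18561 genes tested, 1868 (10.1%) were called at an adjusted p under 0.05. Of these 1238 were higher at week 4, 6.67% of the genes tested, and 630 were lower, 3.39%. These shares are the background for the list counts below. The median log2 fold change over all genes tested was -0.024. Changes over 2-fold made up 754 of the rises and 396 of the falls, and changes over 8-fold 157 and 77. In 1862 of the 1868 the 3 libraries of one age did not overlap the 3 of the other, against 19% of all genes with every week 4 library higher and 18.1% with every week 4 library lower. The same libraries gave the calls and the overlap, so the high share among called genes follows from their selection and is no separate evidence. The count depended on single libraries, with 916, 1100 and 953 genes without week 3 library 1, 2 or 3 and 958 and 1000 without week 4 library 2 or 3, against 1638 without week 4 library 1. With the female libraries only, 406 genes were called, 374 of them shared with the full comparison. The split between rises and falls also depended on the fit, since rises made up 66.3% of calls here but 41.2% of 4568 calls in a fit of the 40 libraries for which the authors deposited normalized values. In that fit the median of all genes was -0.12.

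**Figure D1:**
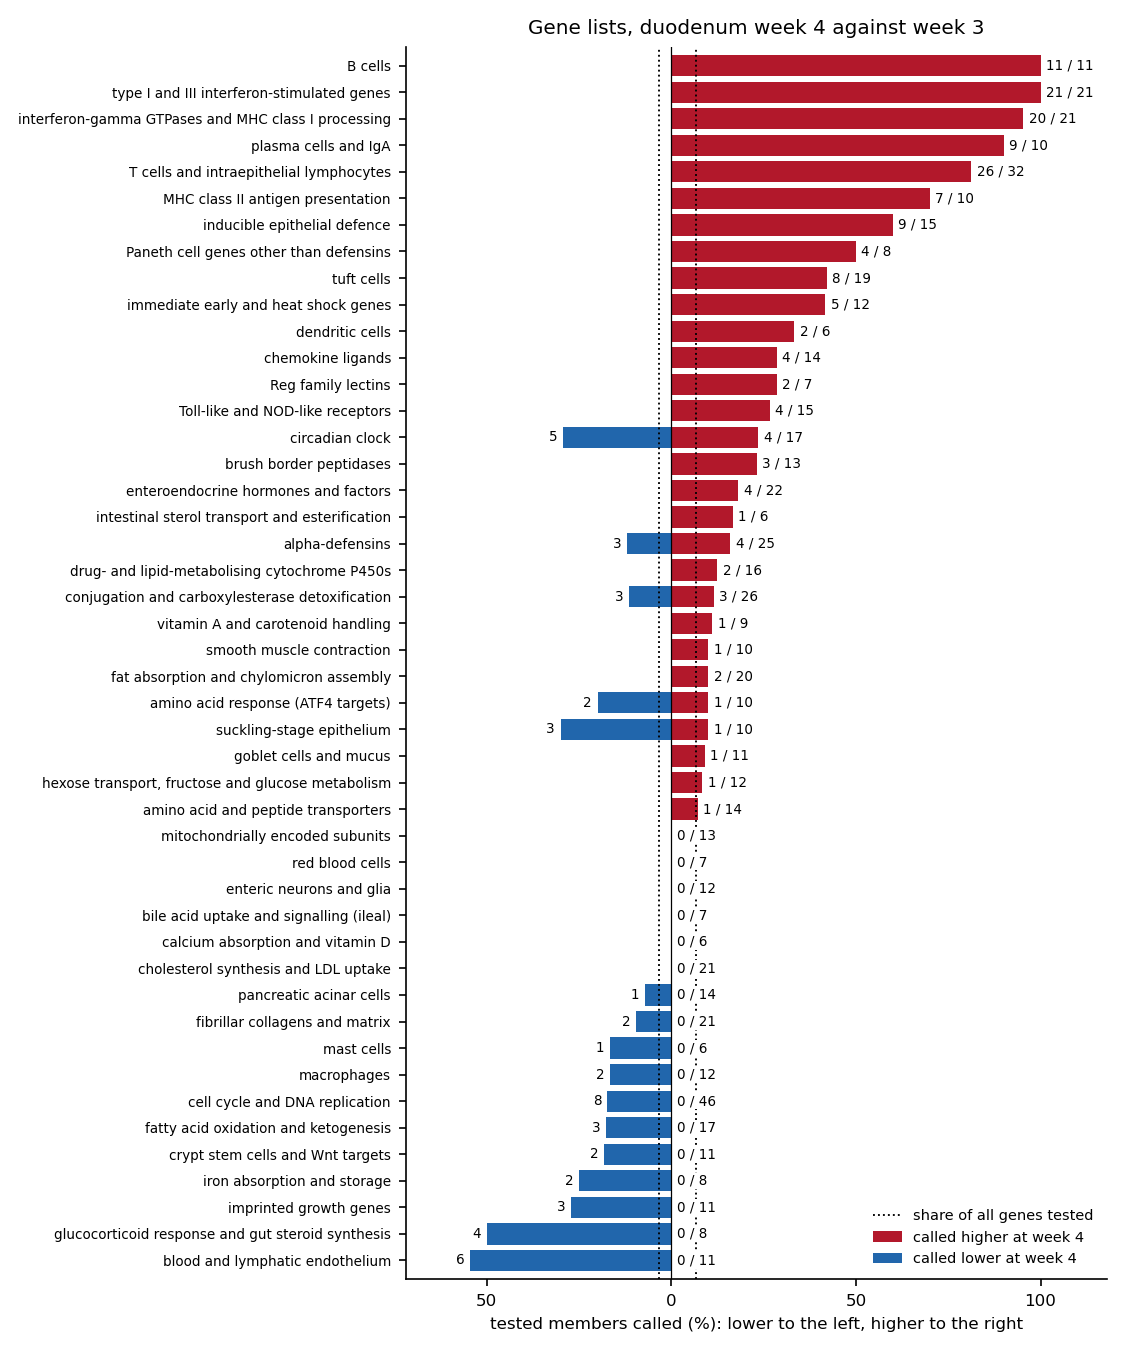
Share of the tested members of each gene list that were called higher (right) or lower (left) at week 4 against week 3 in the duodenum, in percent, with the number called and the number tested beside each bar. Dotted lines mark the share of all 18561 genes called higher (6.67%) and lower (3.39%). Lists of interferon targets, lymphocytes and MHC stand far to the right and the endothelial list to the left.

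Interferon-stimulated genes rose. All 21 tested members of the list of type I and III interferon-stimulated genes were called higher at week 4, against 6.67% of all genes, with a median log2 fold change of 3.60 over the list. In the list of interferon-gamma-inducible GTPases and MHC class I processing, 20 of 21 were called higher, with a median of 2.27. Both lists held with each library left out, at 20 to 21 and 19 to 20 calls, and with the female libraries only 17 and 15 were called. The promoters of these genes are shown because the lists moved almost whole. Over the 250 bases before each RefSeq start (build GRCm38.p6, the assembly also named mm10), the letters GAAANNGAAA, read on either strand, are like the core of the interferon-stimulated response element. They occur in 3.46% of the 27025 genes of the promoter table and in 3.32% of the tested genes found there. They occur in 7.84% of genes called higher, in 2.4% of genes called lower, and in 10 of the 16 matched members of the first list (62.5%) and in 9 of 15 of the second (60%). The letters TTCNNNGAA, like the gamma-activated site, occur in 8.13% of all genes, 18.8% of the first list's matched members and 46.7% of the second's, and the 2 patterns can overlap. A match describes the letters only.

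The 6 called members with the smallest p-values that hold GAAANNGAAA are printed 5′ to 3′ on the gene's strand, from RefSeq, with up to 30 bases on either side and the matching letters in capitals, cut at the start site.
Igtp, chr11:58199492-58199555, plus strand: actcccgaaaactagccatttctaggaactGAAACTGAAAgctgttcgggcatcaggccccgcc
Irgm2, chr11:58214883-58214952, plus strand: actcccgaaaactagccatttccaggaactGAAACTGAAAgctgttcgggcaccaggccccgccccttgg
Irgm1, chr11:48871421-48871480, minus strand: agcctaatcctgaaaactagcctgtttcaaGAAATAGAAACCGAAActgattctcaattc
Oas1g, chr5:120887614-120887661, minus strand: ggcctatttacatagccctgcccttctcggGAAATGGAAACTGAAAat
Oas1a, chr5:120907526-120907575, minus strand: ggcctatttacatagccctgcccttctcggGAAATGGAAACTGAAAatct
Bst2, chr8:71537557-71537632, minus strand: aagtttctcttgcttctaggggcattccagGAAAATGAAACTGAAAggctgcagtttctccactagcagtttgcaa
In Igtp the run lies 34 to 25 bases before the start, and in Oas1a 20 to 5 bases before it. In Irgm1, Oas1g, Oas1a and Bst2 the capitals hold 2 overlapping matches. The windows of Oas1a and Oas1g are alike, as are those of Igtp and Irgm2, and these genes are close paralogs whose reads the authors' quantification may have shared out between them.

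Igtp, a GTPase that acts on vacuoles of intracellular pathogens, stood at 3.91, 3.7 and 3.76 CPM in the week 3 libraries and at 97.6, 112 and 140.1 CPM in the week 4 libraries (log2 fold change 4.94 ± 0.20, adjusted p = 1.28e-08; here and below a log2 fold change is given ± its standard error). Its relatives Irgm2 and Irgm1 rose from 5.87 ± 0.401 to 57.9 ± 11.9 CPM and from 17.5 ± 1.19 to 96.2 ± 5.53 CPM (mean ± SD, n = 3). Every week 4 library lay above every week 3 library for all 3 of these GTPase genes. The proteasome subunit gene Psmb8 rose from 19.7 ± 4.31 to 98.8 ± 8.92 CPM and the peptide transporter gene Tap1 from 17.2 ± 1.82 to 122 ± 23.6 CPM. Both serve the loading of peptides onto MHC class I. Gbp2, a guanylate-binding protein gene, went from 0.754, 0.988 and 1.26 to 2.67, 5.19 and 3.62 CPM (log2 fold change 1.94 ± 0.33, adjusted p = 0.00203). The member of this list that did not pass was Gbp4 (log2 fold change 0.61 ± 0.56, adjusted p = 0.537), named because it was the only one.

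Zbp1, a sensor of Z-form nucleic acid, had the smallest p of the first list and stood at 2.12, 2.07 and 2.59 CPM (week 3) and 102, 114 and 117 CPM (week 4) (log2 fold change 5.62 ± 0.25, adjusted p = 1.89e-08). Isg15, a ubiquitin-like modifier, rose from 3.13, 3.44 and 3.36 to 102, 91.5 and 109 CPM (log2 fold change 4.93 ± 0.39, adjusted p = 8.87e-06). Usp18, the protease that removes Isg15 and damps the interferon receptor, rose from 3.75 ± 0.791 to 69.3 ± 8.53 CPM. The groups were far apart for all 3 and the libraries of each group were close together. Oas1a, Oas1g and Oas2 encode enzymes that make 2-5A, the activator of the nuclease RNase L. Oas2 went from 0.33, 0.51 and 0.476 to 49.9, 49.1 and 50.9 CPM (log2 fold change 6.86 ± 0.61, adjusted p = 4.38e-05), Oas1a from 7.23 ± 1.03 to 126 ± 5.44 CPM and Oas1g from 3.44 ± 0.468 to 69.9 ± 4.97 CPM. Ifit1, which binds foreign RNA caps, started higher, at 37.2, 23.7 and 23.7 CPM, and reached 290.3, 326 and 409.7 CPM (log2 fold change 3.6 ± 0.35, adjusted p = 3.69e-05). Summed over the 21 genes of this list the level was 260 to 325 CPM in the week 3 libraries and 2490 to 3170 CPM in the week 4 libraries.

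**Figure D2:**
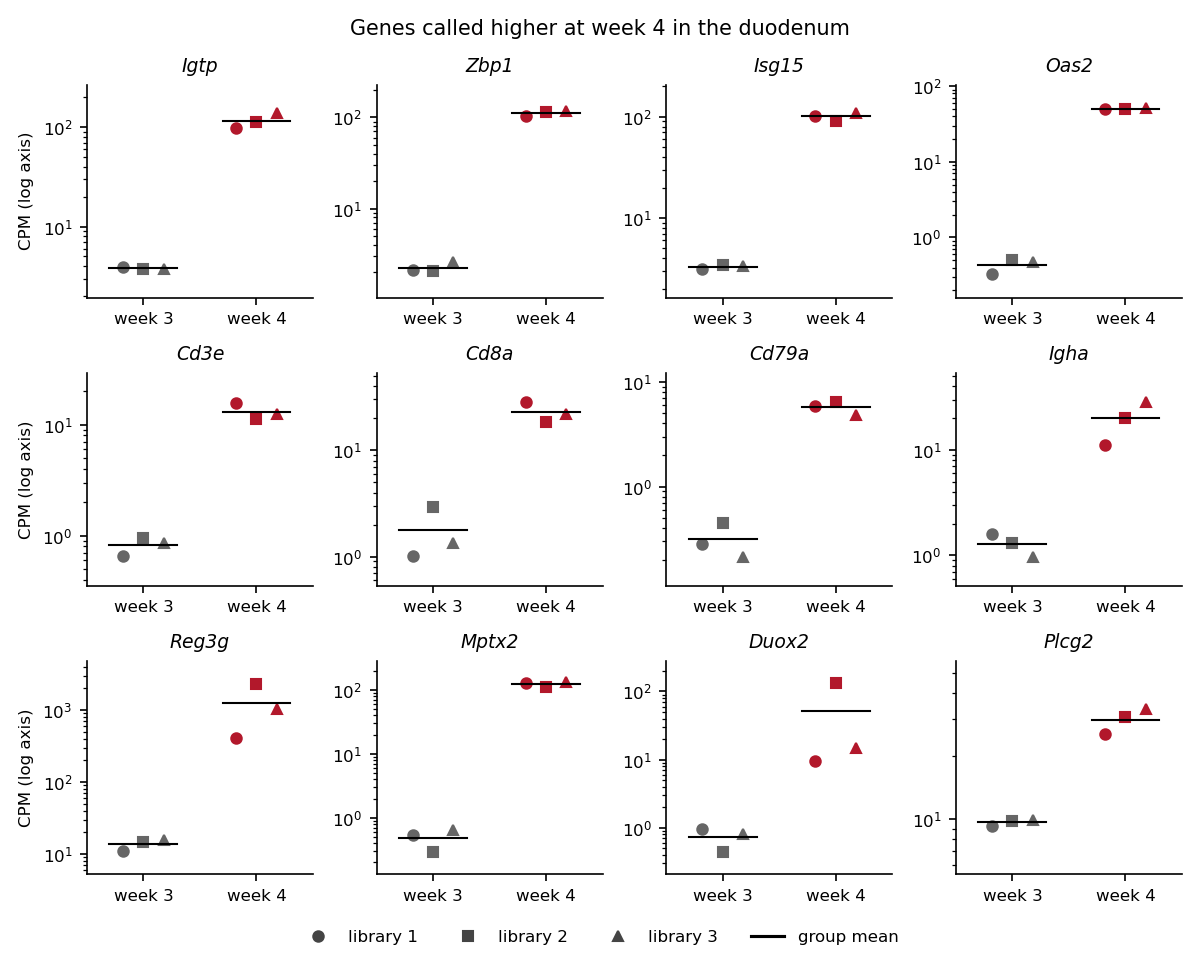
CPM (log axis) of 12 genes in each duodenum library, week 3 on the left and week 4 on the right of each panel, with the library numbers 1 to 3 as separate points and a bar at the group mean. In the interferon, lymphocyte and antibody genes shown the groups do not overlap, while Duox2 spreads widely at week 4 with library 2 highest.

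T cell and intraepithelial lymphocyte genes rose together. Of 32 tested, 26 were called higher, with a median log2 fold change of 2.95. The summed level of the list was 19.4 to 45.6 CPM at week 3 and 251 to 407 CPM at week 4, and 20 were called with the female libraries only. Cd3e, a chain of the T cell receptor complex, stood at 0.66, 0.956 and 0.857 CPM and then at 15.7, 11.2 and 12.4 CPM (log2 fold change 4.0 ± 0.37, adjusted p = 1.59e-05). Cd8a, a coreceptor chain carried by most intraepithelial lymphocytes, went from 1.01, 2.93 and 1.36 to 28.3, 18.5 and 22 CPM, and Gzmb, a cytotoxic granule protease gene, from 1.6, 5 and 2.62 to 55.7, 39.6 and 48.9 CPM. Week 3 library 2 was the highest of its group for both, and still far below the lowest week 4 library. Itgae, the integrin chain that binds epithelial E-cadherin, rose from 1.75 ± 0.548 to 13.4 ± 2.05 CPM, Cd7 from 1.16 ± 0.333 to 19.8 ± 4.88 CPM and Il2rb, a receptor chain for interleukins 2 and 15, from 0.843 ± 0.299 to 14.5 ± 3.37 CPM. Cd4, the coreceptor of helper T cells, chosen here after its values were seen, stood at 1.15, 1.5 and 1.57 and then 1.28, 0.983 and 1.22 CPM (log2 fold change -0.27 ± 0.36, adjusted p = 0.681), and the groups overlapped. Trac, the constant region of the alpha chain, was at 2.2, 3.67 and 4.93 CPM (week 3) and 4.97, 3.24 and 4.22 CPM (week 4) (log2 fold change 0.21 ± 0.37, adjusted p = 0.768), also overlapping, while the constant regions Trbc1, Trbc2 and Trdc, also chosen after their values were seen, rose (2.93, 2.74 and 3.1 on the log2 scale).

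B cell genes rose in all 11 tested members (median log2 fold change 3.67), and 9 of 10 tested plasma cell and IgA genes rose (median 3.19). Summed levels went from 5.16 to 6.12 CPM at week 3 to 49 to 62.7 CPM at week 4 for the first list and from 5.9 to 9.18 CPM to 54.7 to 89 CPM for the second. Cd79a, a signalling chain of the B cell receptor, rose from 0.314 ± 0.119 to 5.71 ± 0.835 CPM. Cr2, a complement receptor of mature B cells, rose from 0.204, 0.159 and 0.119 to 4.35, 3.59 and 4.74 CPM (log2 fold change 4.65 ± 0.52, adjusted p = 0.000107), and Ighd, the constant region of IgD on naive B cells, from 0.475 ± 0.084 to 8.26 ± 0.327 CPM. Igha, the IgA heavy chain, stood at 1.6, 1.31 and 0.976 CPM (week 3) and 11.1, 20.3 and 28.5 CPM (week 4) (log2 fold change 3.93 ± 0.53, adjusted p = 0.00102). Jchain, which joins IgA dimers, went from 0.597, 0.287 and 0.5 to 2.98, 5.01 and 10.8 CPM. Week 4 library 1 was the lowest and library 3 the highest of their group for both, and neither gene overlapped between ages. Pigr, the receptor that carries IgA across the epithelium, rose from 1849, 2224 and 2019 to 4559, 5765 and 5156 CPM (log2 fold change 1.35 ± 0.26, adjusted p = 0.00519; chosen after its values were seen). With the female libraries only, 3 B cell genes and 0 plasma cell genes were called by edgeR, 9 of the latter at an unadjusted p under 0.05. Ms4a1, the gene of CD20, passed narrowly (log2 fold change 1.91 ± 0.54, adjusted p = 0.0468). Ms4a1 did not pass without week 3 library 1, 2 or 3 or week 4 library 1, 2 or 3 (adjusted p up to 0.185).

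Antigen presentation by MHC class II rose in 7 of 10 tested genes (median 1.67), a smaller step. The list's summed level was 58.1 to 74.3 CPM at week 3 and 119 to 190 CPM at week 4. H2-Ab1, a class II beta chain, went from 8.07, 11.5 and 9.66 to 21.5, 41.2 and 37.5 CPM (log2 fold change 1.78 ± 0.36, adjusted p = 0.0085), Ciita, the master regulator of the class II genes, from 1.63, 2.04 and 1.78 to 4.19, 7.52 and 6.75 CPM, and Cd74, the invariant chain, from 27.3 ± 2.86 to 56.5 ± 13.3 CPM. H2-Aa did not pass (log2 fold change 0.72 ± 0.30, adjusted p = 0.148) although its libraries did not overlap. Calls fell to 3 without week 3 library 1 or 3 or week 4 library 2 or 3, and to 1 with the female libraries only. The macrophage list went the other way in 2 of 12 genes, against 3.39% of all genes called lower. Csf1r, the receptor that keeps macrophages alive, fell from 18.2, 16.6 and 13.1 to 4.04, 5.85 and 6.91 CPM (log2 fold change -1.51 ± 0.22, adjusted p = 0.000693) and the fractalkine receptor gene Cx3cr1 from 3.31 ± 0.487 to 1.21 ± 0.314 CPM, whereas C1qa, the complement component, and Adgre1, the gene of F4/80, did not pass. Of the dendritic cell list, 2 of 6 were called higher, Irf8 (log2 fold change 0.99 ± 0.14, adjusted p = 0.000699) and Ccr7 (log2 fold change 2.34 ± 0.66, adjusted p = 0.0392), and Itgax, Xcr1 and Flt3 did not pass. Irf8 had 1427 to 3128 counts in the week 3 libraries, against 111 to 222 for Itgax, 49 to 62 for Xcr1 and 11 to 14 for Flt3. Which cells made the Irf8 RNA was not tested. Siglecf, an eosinophil receptor, rose from 2.15 ± 0.58 to 7.48 ± 1.3 CPM, 1 of 3 tested in its list. Ccr3, the eotaxin receptor, named after its values were seen, had lower values at week 4 without passing (0.613, 0.669 and 0.928 CPM (week 3) and 0.307, 0.32 and 0.384 CPM (week 4), log2 fold change -1.12 ± 0.45, adjusted p = 0.135), while Epx and Prg2, the granule proteins of eosinophils, were at or below 0.0785 CPM in every duodenum library and were not tested. In the mast cell list Hdc, which makes histamine, fell (log2 fold change -2.15 ± 0.40, adjusted p = 0.00406), 1 of 6 tested, and the mast cell proteases Mcpt1 and Mcpt2 did not pass. Of the 10 genes of the neutrophil list 3 were tested and 0 called by edgeR (1 at an unadjusted p under 0.05 and 0 by DESeq2), and S100a8, S100a9 and Ly6g had at most 10 counts in a duodenum library. The macrophage and mast cell lists had 1 fall each with the female libraries only, and edgeR called 0 dendritic cell and 0 eosinophil genes (1 and 1 at an unadjusted p under 0.05). Ciita did not pass without week 3 library 1 or 3 or week 4 library 2 or 3 (adjusted p up to 0.0843). Cd74 did not pass without week 3 library 1, 2 or 3 or week 4 library 2 or 3 (adjusted p up to 0.139). Ccr7 did not pass without week 3 library 1, 2 or 3 or week 4 library 1 or 2 (adjusted p up to 0.148). Siglecf did not pass without week 3 library 1 or 2 or week 4 library 2 (adjusted p up to 0.0764).

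Inducible epithelial defence genes rose in part. Reg3g and Reg3b, secreted lectins that act on bacteria, made up the 2 calls among 7 tested Reg genes. Reg3g went from 11, 14.8 and 15.8 to 415, 2313 and 1045 CPM (log2 fold change 6.5 ± 0.59, adjusted p = 2.32e-05) and Reg3b from 31.3, 50.7 and 40.3 to 1067, 4659.6 and 3465 CPM (log2 fold change 6.23 ± 0.53, adjusted p = 9.64e-06). With the female libraries only, 3 Reg genes were called. Library 2 was the highest and library 1 the lowest of week 4 for both, and even library 1 lay far above every week 3 library. Reg1 overlapped between ages, at 226, 416 and 181 CPM (week 3) and 990.1, 248 and 951 CPM (week 4) (log2 fold change 1.41 ± 0.60, adjusted p = 0.169). Among other inducible defence genes 9 of 15 tested rose (median 1.35). Nos2, the inducible nitric oxide synthase, stood at 0.0942, 0 and 0.0714 CPM (week 3) and 0.52, 35.8 and 1.63 CPM (week 4), and Duox2, which makes hydrogen peroxide at the apical membrane, at 0.958, 0.446 and 0.809 CPM (week 3) and 9.39, 132 and 14.9 CPM (week 4). The partner of Duox2, Duoxa2, followed with 0.346, 0.0956 and 0.19 CPM (week 3) and 1.89, 20.8 and 2.02 CPM (week 4). For these 3 genes week 4 library 2 carried most of the difference, and without it adjusted p was 0.0747, 0.000628 and 0.00329 with log2 fold changes of 3.93, 3.99 and 3.05. That is also the library with low Pdx1, and the part of this library's tissue position in the difference was not tested. Saa1, an acute phase protein gene, was seen mainly in the same library (0, 1.3 and 0.064 CPM at week 4) and did not pass. Retnlb, a goblet cell protein induced by microbes, was at or below 0.0238 CPM in week 3 and at 0.615, 0.565 and 0.352 CPM in week 4 (adjusted p = 0.00175). Tifa and Nfkbiz, which act in NF-kB signalling, rose from 14.5 ± 0.956 to 51.5 ± 21 and from 29.5 ± 5.89 to 64.5 ± 8.76 CPM. The list's count fell to 5 without week 3 library 2 or 3 and to 2 with the female libraries only. Nos2 did not pass without week 3 library 1, 2 or 3 or week 4 library 2 (adjusted p up to 0.164). Duox2 did not pass without week 3 library 2 or 3 (adjusted p up to 0.0532). Duoxa2 did not pass without week 3 library 1, 2 or 3 (adjusted p up to 0.0908).

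Paneth cell genes other than defensins rose in 4 of 8, and in 1 with the female libraries only. Mptx2, a pentraxin of Paneth cells and one of the largest rises, went from 0.534, 0.287 and 0.643 CPM to 129, 111 and 131 CPM (log2 fold change 7.93 ± 0.47, adjusted p = 8.51e-07), and passed in all 18 alternative fits. Ang4, a bactericidal ribonuclease, went from 15.1, 17.2 and 11.6 to 97.1, 67.7 and 42.9 CPM (log2 fold change 2.24 ± 0.39, adjusted p = 0.00406), Mmp7, which activates defensins, from 18.2 ± 2.84 to 48.3 ± 8.15 CPM, and the lectin gene Itln1 from 248 ± 62.8 to 625 ± 95.7 CPM. Lyz1, the lysozyme of Paneth cells, had non-overlapping libraries at 421, 620.0 and 441 CPM (week 3) and 1211, 719 and 762 CPM (week 4) but did not pass (log2 fold change 0.86 ± 0.32, adjusted p = 0.113). The close relative of Mptx2, Mptx1, had lower values at week 4, at 4.19, 4.27 and 3.97 CPM (week 3) and 2.06, 2.11 and 1.44 CPM (week 4), just short of the threshold (log2 fold change -1.14 ± 0.35, adjusted p = 0.0514), and DESeq2 called it lower. Pla2g2a, a secreted phospholipase, stood at 11.2 ± 1.64 and 11.4 ± 1.98 CPM. Mptx1 and Pla2g2a were named after their values were seen. The 4 calls among these 8 genes stand against 6.67% of all genes called higher. The alpha-defensins, antimicrobial peptides of Paneth cells, split, with 4 of 25 tested called higher and 3 lower, against 6.67% and 3.39% of all genes. Their median was -0.19. Defa29 went from 15.9, 25.6 and 17.8 to 89.7, 47.5 and 52.9 CPM and Defa27 from 1.46, 1.47 and 1.98 to 0.568, 0.418 and 0.32 CPM. Defa24, the most abundant of the 3 listed first, stood at 645 ± 42 and 675 ± 269 CPM. Defensin genes are near-identical copies, so the values of single members are uncertain, and the counts moved with single libraries, to 1 higher without week 3 library 3, to 2 higher and 1 lower without week 3 library 1 or 2 or week 4 library 1, to 1 lower without week 4 library 3, and to 0 and 0 by edgeR with the female libraries only (13 at an unadjusted p under 0.05). The summed level of the defensin list was 2660 to 2910 CPM at week 3 and 2220 to 4170 CPM at week 4. Itln1 did not pass without week 3 library 1, 2 or 3 or week 4 library 1, 2 or 3 (adjusted p up to 0.15). Defa29 did not pass without week 3 library 3 (adjusted p up to 0.0513).

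Tuft cells, chemosensory cells of the epithelium, gave 8 rises among 19 tested genes (median 1.31), against 6.67% of all genes. Their summed level went from 62.6 to 72.4 CPM to 143 to 178 CPM. Plcg2 rose from 9.31, 9.78 and 9.95 to 25.5, 30.9 and 33.5 CPM (log2 fold change 1.63 ± 0.16, adjusted p = 1.96e-05), Trpm5, the taste-transduction channel, from 4.6 ± 0.494 to 15 ± 4.46 CPM and Pou2f3, the factor that specifies the lineage, from 1.59 ± 0.277 to 3.96 ± 0.896 CPM. Dclk1, the usual marker, was higher in all week 4 libraries (7.59, 8.64 and 9.23 CPM (week 3) and 14.1, 19.2 and 21 CPM (week 4)) without passing (log2 fold change 1.09 ± 0.48, adjusted p = 0.182). The count was 2 without week 3 library 1, 5 without week 3 library 3 or week 4 library 2, and 1 with the female libraries only. Enteroendocrine genes rose in 4 of 22 tested, against 6.67% of all genes, and in 1 with the female libraries only. Gcg, which encodes glucagon-like peptides, went from 4.96, 4.84 and 8.5 to 19, 21.4 and 28.1 CPM (log2 fold change 1.9 ± 0.22, adjusted p = 8.76e-05), Cck, the hormone released by fat and protein, from 7.62, 8.7 and 9.09 to 26.2, 22 and 26.7 CPM (log2 fold change 1.56 ± 0.27, adjusted p = 0.00225), and ghrelin (Ghrl) and secretogranin (Scg2) from 6.65 ± 1.01 to 14 ± 2.07 and from 3.93 ± 0.363 to 12.4 ± 2.13 CPM. Chga, a pan-endocrine granule gene, stood at 69 ± 5.93 and 68.3 ± 9.61 CPM. Among 11 goblet cell genes Fcgbp alone rose (log2 fold change 1.01 ± 0.29, adjusted p = 0.0409), none by edgeR with the female libraries only (1 at an unadjusted p under 0.05), and Muc2 and Tff3 stood at 337 ± 93.2 and 367 ± 173 CPM and at 176 ± 19.4 and 183 ± 7.49 CPM. Pou2f3 did not pass without week 3 library 1, 2 or 3 or week 4 library 1 or 2 (adjusted p up to 0.101). Ghrl did not pass without week 3 library 1, 2 or 3 or week 4 library 3 (adjusted p up to 0.11). Fcgbp did not pass without week 3 library 1, 2 or 3 or week 4 library 2 or 3 (adjusted p up to 0.218). The 1 of 11 called in the goblet cell list lies near the 6.67% of all genes.

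Most digestive genes did not pass. None of the 4 brush border disaccharidases was called by edgeR, 1 had an unadjusted p under 0.05 and DESeq2 called 1. Sis, the sucrase-isomaltase gene, stood at 3350.2, 3149 and 2772 CPM (week 3) and 3316, 4714 and 4156 CPM (week 4) (log2 fold change 0.39 ± 0.32, adjusted p = 0.475), and Lct, the lactase gene, at 1416, 1561 and 1397 CPM (week 3) and 1140.2, 2882 and 2323 CPM (week 4) (log2 fold change 0.54 ± 0.76, adjusted p = 0.706), both overlapping. Brush border peptidases rose in 3 of 13 tested. Anpep, aminopeptidase N, went from 2215, 2510.0 and 2414 to 7950.0, 13565 and 10015 CPM (log2 fold change 2.14 ± 0.33, adjusted p = 0.000973), Mep1b, a meprin chain, from 566 ± 78.4 to 1194 ± 437 CPM and Ggt1, which splits glutathione, from 305 ± 41.5 to 593 ± 81.3 CPM. Dpp4 and Enpep did not pass. Of 14 amino acid and peptide transporters 1 rose, the proton-coupled Slc36a1 (49.3, 63.5 and 63 CPM (week 3) and 155, 343 and 325 CPM (week 4)), and the peptide carrier Slc15a1 did not pass (log2 fold change 1.18 ± 0.46, adjusted p = 0.134). Of 12 hexose genes 1 rose, Txnip, a glucose-responsive regulator (log2 fold change 0.99 ± 0.20, adjusted p = 0.00735), while the glucose carriers Slc5a1 and Slc2a2 and the fructose carrier Slc2a5 did not pass, the last at 87.7, 80.5 and 90 CPM (week 3) and 151, 193 and 277 CPM (week 4). In 20 genes of fat absorption Slc27a4, a fatty acid carrier (log2 fold change 1.25 ± 0.29, adjusted p = 0.0152), and Gpat3, of triglyceride synthesis (log2 fold change 1.19 ± 0.30, adjusted p = 0.0221), rose, and Apob, Apoa4 and Mttp did not pass. Soat2, which esterifies cholesterol, rose (log2 fold change 1.14 ± 0.31, adjusted p = 0.0325), 1 of 6 sterol transport genes, and 0 of 21 cholesterol synthesis genes were called by edgeR (3 at an unadjusted p under 0.05 and 1 by DESeq2). Bco1, which cleaves beta-carotene of plants to vitamin A, rose from 1.16, 1.4 and 2.24 to 6.84, 15.2 and 13.1 CPM (log2 fold change 2.87 ± 0.62, adjusted p = 0.0141), 1 of 9 vitamin A genes. The 1 of 14, 1 of 12, 2 of 20 and 1 of 9 called in the amino acid, hexose, fat and vitamin A lists lie near the 6.67% of all genes. Without week 4 library 1 the counts were 5 peptidases, 4 amino acid and peptide transporters and 2 sterol genes. With the female libraries only, edgeR called 0 genes of the disaccharidase, hexose, peptidase, amino acid, fat, sterol and vitamin A lists, of which 12 had an unadjusted p under 0.05. Mep1b, Ggt1, Slc27a4, Gpat3 and Soat2 did not pass without week 3 library 1, 2 or 3 or week 4 library 2 or 3 (adjusted p up to 0.15, 0.139, 0.0735, 0.0962 and 0.151). Slc36a1 did not pass without week 3 library 1, 2 or 3 or week 4 library 2 (adjusted p up to 0.0675). Txnip did not pass without week 3 library 3 (adjusted p up to 0.0531). Bco1 did not pass without week 3 library 1 or 2 or week 4 library 2 (adjusted p up to 0.0712).

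Iron genes fell in 2 of 8 tested, against 3.39% of all genes, in 1 without week 3 library 1 or week 4 library 1 or with the female libraries only, and in 0 by edgeR without week 4 library 2 or 3. Cybrd1, the reductase that prepares dietary iron for uptake, went from 70.3, 107 and 25 to 11.6, 5.68 and 5.15 CPM (log2 fold change -3.17 ± 0.65, adjusted p = 0.0146), and Slc11a2, the iron carrier of the brush border, from 322, 103 and 69.7 to 62, 42.6 and 55.4 CPM (log2 fold change -1.63 ± 0.46, adjusted p = 0.0479). Week 3 library 1 was by far the highest for Slc11a2. Slc40a1, the exporter ferroportin, overlapped at 419.7, 293 and 152 CPM (week 3) and 189, 21.5 and 134 CPM (week 4). Week 4 library 2 was lowest for Slc40a1, and it was lowest too for the calcium genes S100g (342, 14.2 and 154 CPM at week 4) and Trpv6 (15.5, 0.344 and 10.1 CPM), which also did not pass. Of 6 calcium genes 0 were called by edgeR (1 at an unadjusted p under 0.05 and 1 by DESeq2), and of 7 bile acid genes also 0 (2 and 1). Genes of fatty acid oxidation fell in 3 of 17, against 3.39% of all genes. Pdk4, the kinase that turns off glucose oxidation, went from 164, 175 and 119 to 17.1, 15 and 23.5 CPM (log2 fold change -3.05 ± 0.40, adjusted p = 0.000699), Angptl4, a lipase inhibitor, from 45, 34.2 and 31.5 to 5.3, 7.6 and 6.14 CPM (log2 fold change -2.54 ± 0.33, adjusted p = 0.000418), and the thiolase Acaa2 from 238 ± 48.8 to 126 ± 39.7 CPM, while Cpt1a did not pass. Of 26 conjugation and esterase genes 3 rose and 3 fell, against 6.67% and 3.39% of all genes. In this list 1 rose without week 3 library 1, 2 or 3 or week 4 library 2 or 3. Ces2a, a carboxylesterase, rose from 122 ± 13.4 to 474 ± 84.4 CPM, and Gclc, of glutathione synthesis, and the sulfotransferase Sult1d1 fell from 71.6 ± 6.82 to 36.3 ± 1.86 and from 605 ± 134 to 261 ± 8.58 CPM. The cytochrome P450 genes Cyp2u1 (log2 fold change 1.5 ± 0.28, adjusted p = 0.00411) and Cyp3a25 (log2 fold change 1.07 ± 0.25, adjusted p = 0.0152) rose, 2 of 16 against 6.67% of all genes, and Cyp3a11 did not pass. In the female libraries alone, 2 oxidation genes fell, 1 conjugation gene rose and 2 fell, and edgeR called 0 P450 genes (2 at an unadjusted p under 0.05). Cybrd1 did not pass without week 4 library 2 or 3 (adjusted p up to 0.0768). Slc11a2 did not pass without week 3 library 1 or week 4 library 1, 2 or 3 (adjusted p up to 0.188). Acaa2 did not pass without week 3 library 1, 2 or 3 or week 4 library 2 or 3 (adjusted p up to 0.188). Cyp3a25 did not pass without week 3 library 1 or 3 or week 4 library 2 or 3 (adjusted p up to 0.0863).

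Genes of glucocorticoid response and gut steroid synthesis, here the glucocorticoid list, fell in part. Of 8 tested genes of the glucocorticoid list 4 were called lower, against 3.39% of all genes. Fkbp5, a chaperone of the receptor and one of its direct targets, went from 148, 99.9 and 69 to 13.3, 8.04 and 11.8 CPM (log2 fold change -3.25 ± 0.40, adjusted p = 0.000418), and Sgk1, a kinase that acts on sodium channels, from 429, 375 and 228 to 39.8, 64.7 and 94.8 CPM (log2 fold change -2.37 ± 0.30, adjusted p = 0.000229). In both, week 3 library 1 was highest and library 3 lowest of its group, and no week 4 library reached them. Zbtb16 fell from 2.58, 2.2 and 0.738 to 0.0946, 0.467 and 0.096 CPM and Nr5a2, a nuclear receptor of gut steroid synthesis, from 48.5 ± 4.62 to 30.8 ± 2.13 CPM. Tsc22d3, another classical target, did not pass (log2 fold change -0.21 ± 0.30, adjusted p = 0.698), and Cyp11b1, which makes corticosterone, had at most 17 counts in a duodenum library and was not tested. The count was 2 without week 3 library 1, without week 4 library 3, and with the female libraries only. Clock genes moved both ways, with 4 of 17 called higher and 5 lower, against 6.67% and 3.39% of all genes. Dbp, an output factor, rose from 5.61, 7.94 and 6.16 to 20.8, 24.6 and 35.9 CPM (log2 fold change 2.05 ± 0.36, adjusted p = 0.00359) and the repressor Nr1d1 from 40.2, 34.6 and 26.6 to 69, 115 and 89.2 CPM, while Per1 fell from 35.9, 20.4 and 21.5 to 7.92, 6.98 and 9.05 CPM (log2 fold change -1.7 ± 0.25, adjusted p = 0.000695) and Arntl, the core activator, from 26.6 ± 1.56 to 15.9 ± 1.79 CPM. Per2 did not pass. The hour of collection is not given in the sources used here. The calls were 3 higher and 1 lower without week 3 library 1, 2 and 2 without week 3 library 2, 3 and 3 without week 4 library 1 or 3, 2 and 3 without week 4 library 2, and 0 and 1 by edgeR with the female libraries only (8 at an unadjusted p under 0.05). Immediate early and heat shock genes rose in 5 of 12, among them Atf3 from 4.27, 3.31 and 3.76 to 18.5, 19.6 and 18.2 CPM (log2 fold change 2.3 ± 0.20, adjusted p = 8.62e-06) and Junb from 23.7 ± 1.77 to 61.1 ± 12.9 CPM, and Fos, Egr1 and Hspa1a did not pass. With the female libraries only, 1 of the 12 was called. Zbtb16 did not pass without week 3 library 1 or 2 or week 4 library 1 or 3 (adjusted p up to 0.157). Nr5a2 did not pass without week 3 library 1 or 3 or week 4 library 2 or 3 (adjusted p up to 0.0768). Arntl did not pass without week 3 library 1 (adjusted p up to 0.0591).

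**Figure D3:**
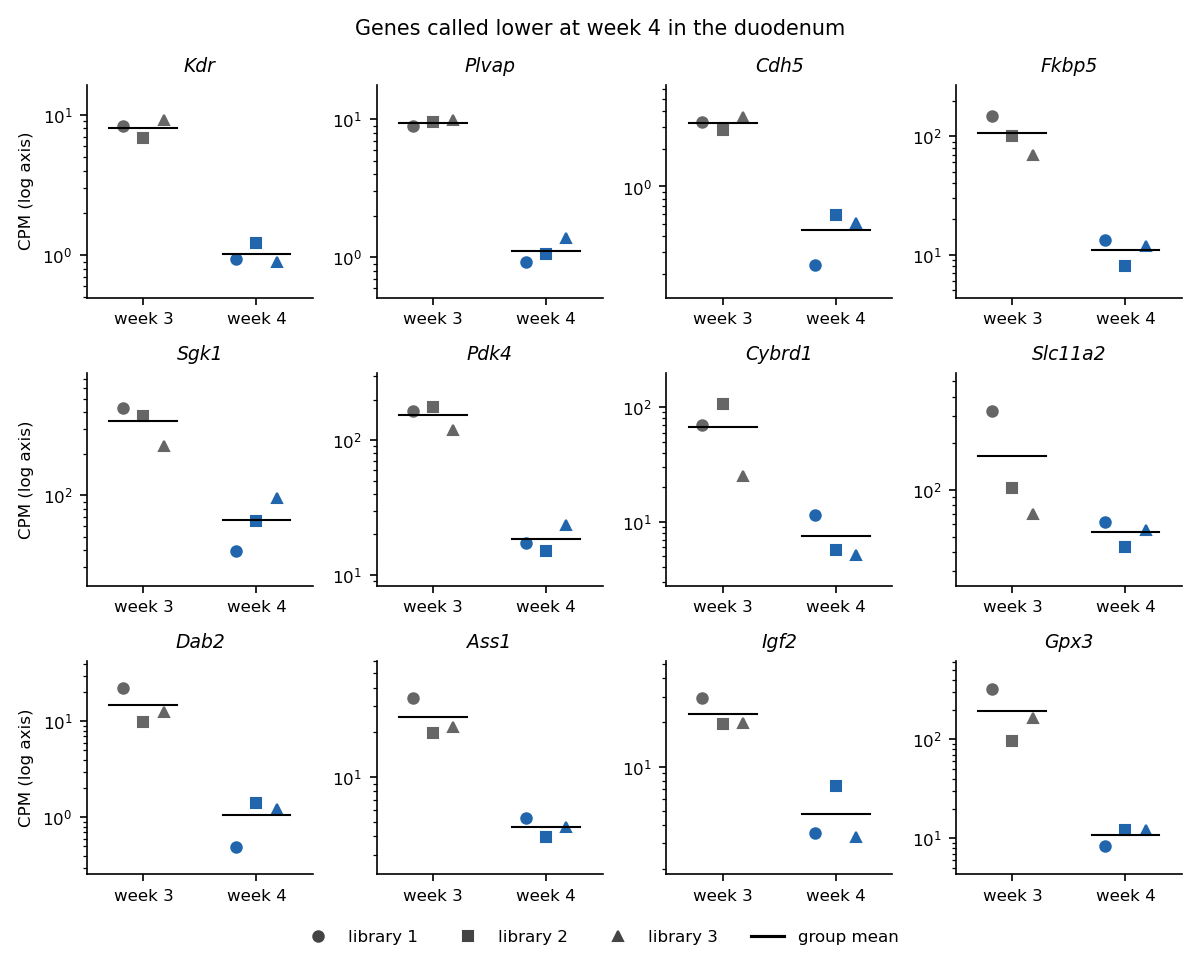
CPM (log axis) of 12 genes in each duodenum library, week 3 on the left and week 4 on the right of each panel, with library numbers 1 to 3 as separate points and a bar at the group mean. The endothelial, glucocorticoid, iron, suckling-stage and growth genes shown lie lower in all 3 week 4 libraries.

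Vessel genes fell in part. Of 11 tested genes of blood and lymphatic endothelium 6 were called lower, against 3.39% of all genes, with a median of -2.39, and the summed level went from 45.9 to 52.9 CPM to 16.1 to 18.3 CPM. Kdr, the main receptor for VEGF, stood at 8.34, 6.79 and 9.16 CPM and then at 0.946, 1.23 and 0.896 CPM (log2 fold change -2.98 ± 0.29, adjusted p = 2.32e-05). Plvap, the protein of fenestral diaphragms, went from 8.97, 9.5 and 9.9 to 0.922, 1.06 and 1.38 CPM (log2 fold change -3.08 ± 0.32, adjusted p = 3.53e-05), Cdh5, the adhesion molecule of endothelial junctions, from 3.3, 2.8 and 3.57 to 0.237, 0.59 and 0.512 CPM and Emcn, an endothelial sialomucin, from 1.9, 2.01 and 2.83 to 0.0473, 0.369 and 0.32 CPM. No library overlapped between ages in these 4. Pecam1, a general endothelial marker, had lower values at week 4 (8.09, 11.4 and 10.5 CPM (week 3) and 6.72, 5.26 and 5.31 CPM (week 4)) without passing (log2 fold change -0.79 ± 0.46, adjusted p = 0.309), as had Lyve1 of lymphatic vessels (log2 fold change -0.57 ± 0.24, adjusted p = 0.162). The count was 6 with each library left out and 3 with the female libraries only. In the matrix list 2 of 21 fell, against 3.39% of all genes. They were Col4a2 (log2 fold change -1.79 ± 0.37, adjusted p = 0.00857) and Col4a1 (log2 fold change -2.04 ± 0.47, adjusted p = 0.0202), chains of basement membrane collagen. The fibrillar Col1a1 (log2 fold change 1.07 ± 0.39, adjusted p = 0.111) and Col3a1 did not pass. Without week 4 library 1, however, 4 genes of the matrix list were called higher, Col1a1 among them, and DESeq2 called 4 higher in all libraries. The falls numbered 1 without week 3 library 3 or week 4 library 3, and with the female libraries only edgeR called 0 matrix genes (3 at an unadjusted p under 0.05). Smooth muscle gave 1 rise in 10, or 2 without week 4 library 1 and 0 by edgeR with the female libraries only (1 at an unadjusted p under 0.05). The 1 in 10 lies near the 6.67% of all genes called higher. The gene called was Mylk (log2 fold change 0.92 ± 0.18, adjusted p = 0.0054), the myosin light chain kinase, which epithelium also makes. Acta2, Myh11 and Des did not pass, with week 4 library 2 highest for each (3.45, 12.7 and 6.66 CPM for Myh11 at week 4). Of 12 neuron and glia genes 0 were called by edgeR (4 at an unadjusted p under 0.05 and 1 by DESeq2), and of 7 red cell genes also 0 (0 and 0). Col4a1 did not pass without week 3 library 1 or 3 or week 4 library 3 (adjusted p up to 0.0825).

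Proliferation genes had mostly lower values. Of 46 tested 8 were called lower, against 3.39% of all genes, 45 had a negative log2 fold change, and the median was -0.54. Kif11, a spindle motor, went from 90.6, 77.3 and 95.6 to 55.5, 34.2 and 47.9 CPM (log2 fold change -0.94 ± 0.21, adjusted p = 0.0123), Hells, a replication-linked helicase, from 70 ± 15.1 to 30.6 ± 7.42 CPM, and Mki67, the usual marker, from 395, 273 and 379.8 to 281, 179 and 209 CPM without passing (log2 fold change -0.65 ± 0.24, adjusted p = 0.104). The count was 1 without week 3 library 1, 5 without week 3 library 2, 0 without week 3 library 3, 0 without week 4 library 2, 1 without week 4 library 3 and 1 with the female libraries only. It was 16 with the sex index and with DESeq2, and 29 in the fit of 40 libraries. Among 11 stem cell and Wnt genes 2 were called lower, against 3.39% of all genes. These were Lgr5 (log2 fold change -0.65 ± 0.20, adjusted p = 0.0498) and the ubiquitin ligase Znrf3 (log2 fold change -0.66 ± 0.18, adjusted p = 0.0335), while Olfm4 stood at 1461 ± 355 and 1489.9 ± 231 CPM. None of these 11 was called by edgeR with the female libraries only (1 at an unadjusted p under 0.05). Kif11 did not pass without week 3 library 3 or week 4 library 2 (adjusted p up to 0.0716). Hells did not pass without week 3 library 1 or 3 or week 4 library 2 or 3 (adjusted p up to 0.117). Lgr5 did not pass without week 3 library 1, 2 or 3 or week 4 library 1, 2 or 3 (adjusted p up to 0.175). Znrf3 did not pass without week 3 library 1, 2 or 3 or week 4 library 1 or 2 (adjusted p up to 0.13).

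Of 10 tested genes of the suckling stage 3 fell and 1 rose, against 3.39% and 6.67% of all genes. Dab2, an endocytic adaptor of the suckling epithelium, went from 22, 9.78 and 12.4 to 0.497, 1.43 and 1.22 CPM (log2 fold change -3.83 ± 0.50, adjusted p = 0.000576), Ass1, of arginine synthesis, from 34, 19.9 and 21.8 to 5.27, 3.96 and 4.64 CPM (log2 fold change -2.45 ± 0.41, adjusted p = 0.00283) and Cubn, a receptor for protein uptake, from 789.5, 650.0 and 654 to 137, 439 and 259.8 CPM (log2 fold change -1.33 ± 0.33, adjusted p = 0.0201). Prdm1, a repressor that is known to keep the suckling programme on, rose (log2 fold change 0.82 ± 0.21, adjusted p = 0.022), and the neonatal IgG receptor gene Fcgrt did not pass (log2 fold change 0.12 ± 0.27, adjusted p = 0.825). Imprinted growth genes fell in 3 of 11, against 3.39% of all genes. With the female libraries only, 2 of the suckling-stage and 2 of the imprinted genes were lower and none was higher. Igf2, a fetal growth factor, went from 29.5, 19.4 and 19.8 to 3.5, 7.4 and 3.3 CPM (log2 fold change -2.27 ± 0.41, adjusted p = 0.00519) and Cdkn1c, a cell cycle inhibitor, from 24.1, 20.7 and 16.7 to 7.69, 9.39 and 11 CPM. H19 was high in week 3 library 1 alone (11.3, 0.574 and 0.571 CPM), against 0.26, 0.246 and 0.192 CPM at week 4. Cubn did not pass without week 3 library 1 or 3 or week 4 library 3 (adjusted p up to 0.0862). Prdm1 did not pass without week 3 library 1, 2 or 3 or week 4 library 2 or 3 (adjusted p up to 0.12). H19 did not pass without week 3 library 1 or week 4 library 1, 2 or 3 (adjusted p up to 0.229).

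Chemokines and sensors rose in part. Of 14 tested chemokine genes 4 rose, against 6.67% of all genes. Cxcl10, an interferon-induced attractant of T cells, went from 0.487, 0.446 and 0.619 to 2.2, 3.44 and 3.33 CPM (log2 fold change 2.52 ± 0.52, adjusted p = 0.00744) and Cx3cl1 from 53.8 ± 3.38 to 114 ± 32.7 CPM, while Ccl25, which draws lymphocytes to the small intestine, and Ccl28 did not pass. Of 15 Toll-like and NOD-like receptor genes 4 rose, against 6.67% of all genes. Among them Tlr3, a sensor of double-stranded RNA, went from 18.7, 22 and 28.6 to 43.9, 49.2 and 52.9 CPM (log2 fold change 1.07 ± 0.16, adjusted p = 0.000973) and the adaptor Myd88 from 15.5 ± 1.21 to 24.6 ± 0.825 CPM. Tlr5, the flagellin receptor, had lower values at week 4 (2.95, 2.33 and 2.97 CPM (week 3) and 0.307, 1.35 and 1.5 CPM (week 4)) without passing (log2 fold change -1.39 ± 0.44, adjusted p = 0.0643). The chemokine count was 1 to 2 without week 3 library 1 or 2 or week 4 library 2 or 3, and the receptor count was 2 without week 3 library 2 or 3 or week 4 library 2 or 3. Among female libraries only, edgeR called 0 chemokine genes (4 at an unadjusted p under 0.05) and 1 receptor gene. Of 10 targets of ATF4, the amino acid stress factor, Trib3 rose and the serine synthesis genes Psat1 and Phgdh fell (1.13, -0.94 and -1.25 on the log2 scale), against 1 lower and 0 higher with the female libraries only. Cx3cl1 and Myd88 did not pass without week 3 library 2 or 3 or week 4 library 2 or 3 (adjusted p up to 0.0675 and 0.112). Trib3 and Psat1 did not pass without week 3 library 1, 2 or 3 or week 4 library 2 or 3 (adjusted p up to 0.17 and 0.154). Phgdh did not pass without week 3 library 1, 2 or 3 or week 4 library 1, 2 or 3 (adjusted p up to 0.166).

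Genes of neighbouring organs were mostly not called. Of 20 pancreatic acinar genes 14 were tested and 1 was lower, Pnliprp1 (log2 fold change -1.45 ± 0.41, adjusted p = 0.0373), with a summed level of 27.9 to 37.4 CPM at week 3 and 15.6 to 40.7 CPM at week 4. Cpa1, Pnlip and Cela2a were at 0 in week 4 library 3 and at most 2.08 CPM elsewhere. Amy2a5, not tested and chosen after its values were seen, had at most 4.9 CPM in a duodenum library. Islet hormone genes Ins1 and Ins2 had at most 4 counts. Of 14 stomach genes 3 were tested and 0 called by edgeR (1 at an unadjusted p under 0.05 and 0 by DESeq2), with a sum of 3.06 to 8.69 CPM and 3.47 to 9.63 CPM. In adipose tissue Fabp4, which endothelium also makes, fell (log2 fold change -2.39 ± 0.65, adjusted p = 0.0388), 1 of 5 tested, while Adipoq had at most 5 counts. The summed level of the adipose list was 54 to 54.4 CPM at week 3 and 62.4 to 73.8 CPM at week 4. For the female libraries alone, edgeR called 0 acinar and 0 adipose genes (1 and 1 at an unadjusted p under 0.05). Of 13 mitochondrially encoded genes 0 were called by edgeR (1 at an unadjusted p under 0.05 and 1 by DESeq2). Pnliprp1 did not pass without week 3 library 1, 2 or 3 or week 4 library 2 or 3 (adjusted p up to 0.152). Fabp4 did not pass without week 3 library 1, 2 or 3 or week 4 library 1 or 3 (adjusted p up to 0.142).

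The largest rises and falls among expressed genes, by size alone, held several genes outside the lists. Gm42429, an unnamed locus, had no count in the week 3 libraries and stood at 23.4, 30.3 and 21.8 CPM at week 4, at least 352-fold higher when the week 3 group is set to 3 counts per library. GENCODE M21 lists it as a transcript still to be experimentally tested, at chr5:44134393-44134950 on the plus strand. Oas1e, a further Oas gene, and Ifi44, another interferon target, rose from 0, 0 and 0.0714 to 5.25, 4.47 and 7.87 CPM and from 1.04, 0.319 and 0.643 to 50, 34.8 and 33.4 CPM (log2 fold change 5.81 ± 0.49, adjusted p = 1.83e-05), and the ubiquitin-like modifier Ubd, induced by interferon-gamma, from 0.157, 0.0956 and 0.19 to 4.3, 9.93 and 5.22 CPM (log2 fold change 5.39 ± 0.51, adjusted p = 1.97e-05). Oas2, Zbp1, Mptx2, Reg3g, Reg3b, Nos2, Duox2 and Duoxa2, described above, made up the rest of the 12 largest rises.

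Among the largest falls, Tdrp went from 26.7, 12.4 and 16.3 to 0.378, 0.172 and 0.224 CPM (log2 fold change -6.13 ± 0.47, adjusted p = 3.29e-06) and Serpina1a, an alpha-1-antitrypsin gene, from 14.4, 10.3 and 9.42 to 0.355, 0.344 and 0.384 CPM (log2 fold change -4.97 ± 0.46, adjusted p = 1.41e-05). The Serpina1 genes are close copies, so this value is uncertain. Hif3a, a hypoxia-inducible factor, fell from 28.3, 17.1 and 11.3 to 0.449, 0.934 and 0.544 CPM (log2 fold change -4.86 ± 0.59, adjusted p = 0.000373), and Gpx3, the secreted glutathione peroxidase, from 324, 96.1 and 166 to 8.37, 12.3 and 12.2 CPM (log2 fold change -4.16 ± 0.63, adjusted p = 0.00263). Slc15a2, a high-affinity peptide carrier best known from kidney, went from 5.34, 6.31 and 13.4 to 0.449, 0.0492 and 0.32 CPM (log2 fold change -4.92 ± 0.99, adjusted p = 0.0125). Rab11fip5, an effector of recycling endosomes, was tight in both groups, at 11.5, 10.8 and 10.4 CPM (week 3) and 0.331, 0.762 and 0.576 CPM (week 4) (log2 fold change -4.29 ± 0.30, adjusted p = 9.2e-07). Cryz, a quinone reductase, fell from 12.4 ± 2.3 to 0.816 ± 0.0308 CPM, Smcp from 3.91 ± 0.653 to 0.164 ± 0.0503 CPM and Gml from 7.96 ± 2.21 to 0.404 ± 0.292 CPM. Meltf, a relative of transferrin, was by far highest in week 3 library 1, at 28, 1.24 and 2.74 CPM (week 3) and 0, 0.197 and 0.032 CPM (week 4) (log2 fold change -7.04 ± 1.68, adjusted p = 0.0317), and without that library the log2 fold change was -4.59 with an adjusted p of 0.0388. Slc15a2 did not pass without week 4 library 2 or 3 (adjusted p up to 0.0583). Meltf did not pass without week 4 library 1, 2 or 3 (adjusted p up to 0.115).

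Set against all earlier ages of the duodenum, many week 4 levels lay outside the earlier range. Over the 21 duodenum libraries of day 0 to week 3, all 3 week 4 libraries lay above every earlier library for 1240 of the 18561 genes (6.68%) and below for 740 (3.99%). The 21 include the day 6 libraries, and earlier work on these data reports libraries at day 6 that go against their labels. Among genes called higher, 690 of 1238 (55.7%) exceeded every earlier library, and among genes called lower 256 of 630 (40.6%) lay below. Called genes were picked for their difference from the week 3 libraries, which are among the 21, so part of this excess over all genes is built in. Of the 21 genes of the first interferon list 17 were above all earlier libraries, of 21 in the second 13, and of 32 T cell genes 24, but of 11 B cell genes 4. Scaled over all 48 libraries, Igtp lay at 15.2 to 18 CPM at day 0, at 16.4 to 44.8 CPM at week 2, at 4.06 to 4.46 CPM at week 3 and at 108 to 155 CPM at week 4. Isg15 and Zbp1 had the same dip, at 11.9 to 28.3 and 28.2 to 61.8 CPM at week 2 against 3.56 to 3.78 and 2.28 to 2.81 CPM at week 3. For these 3 genes, week 3 thus held the lowest duodenum levels of all ages and week 4 the highest, and the log2 fold change between them includes the dip. Oas2 was instead near its week 3 level at all ages from day 4 to week 2, apart from day 6 where 1 library was higher. Fkbp5 had a peak at week 3 (74.7 to 168 CPM) between 5.39 to 7.33 CPM at week 2 and 9.1 to 14.7 CPM at week 4, and its day 0 level was also high, at 86 to 286 CPM. Dab2 and Ass1 had already fallen from 425 to 579 and 255 to 357 CPM at week 2 to 10.7 to 25.1 and 21.8 to 38.7 CPM at week 3. Kdr was at 5.64 to 10.7 CPM at week 2 and 7.46 to 9.92 CPM at week 3, before 0.989 to 1.39 CPM at week 4. At day 8 Kdr stood at 2.06 to 3.72 CPM.

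**Figure D4:**
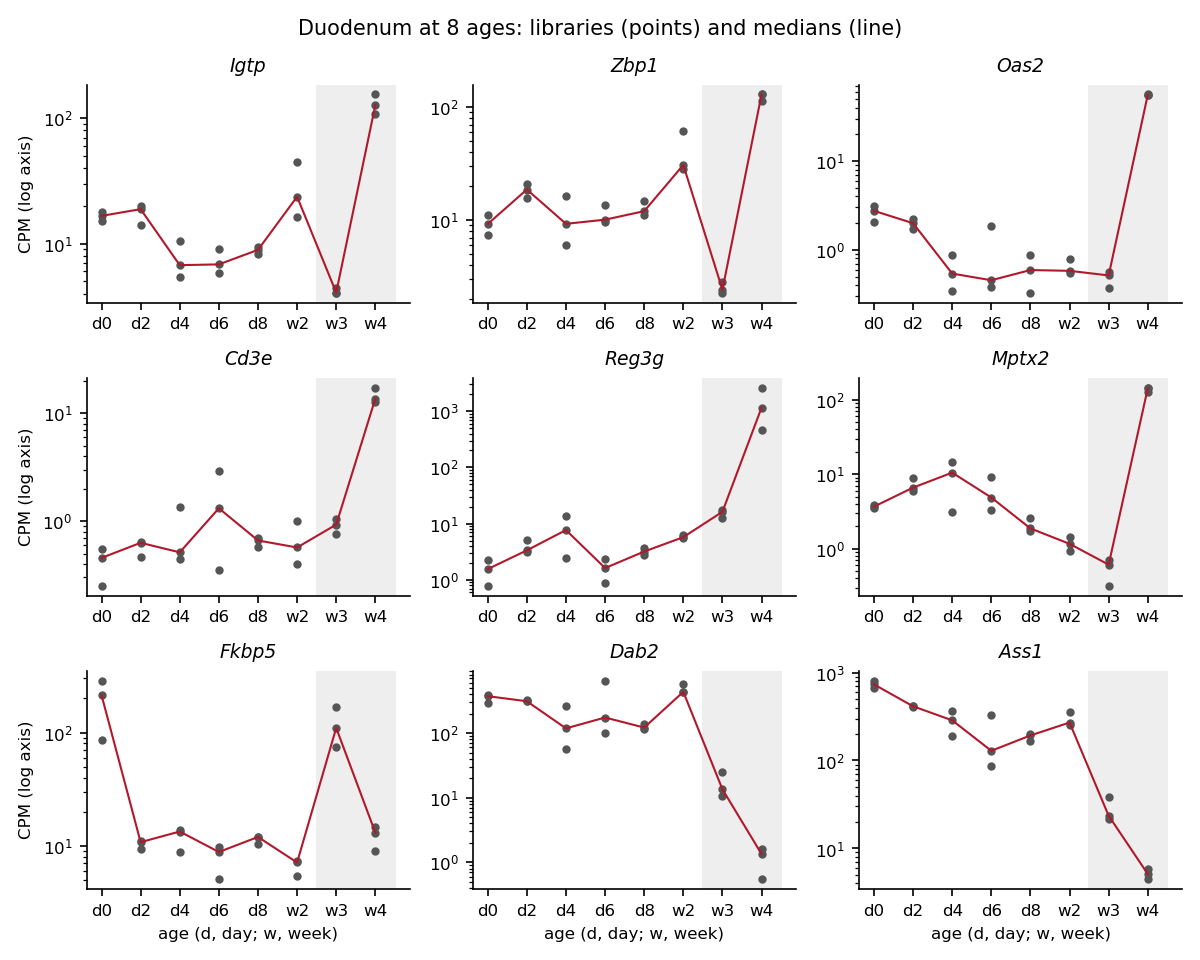
CPM (log axis, scaled over all 48 libraries) of 9 genes in the 3 duodenum libraries of each of the 8 ages from day 0 to week 4, as separate points with a line through the group medians. Igtp and Zbp1 are lowest at week 3 and highest at week 4, Fkbp5 peaks at day 0 and week 3, and Dab2 and Ass1 fall from week 2 onwards. Earlier work on these data reports libraries at day 6 that go against their labels.

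Beside the ileum over the same week, 2606 of the same 18561 genes (14%) were called there, 1460 higher (7.87%) and 1146 lower (6.17%). Of the duodenal calls, 1021 were called in the same direction in the ileum (54.7% of calls in the duodenum and 39.2% of calls in the ileum) and 7 in the opposite one. The difference between the regions, tested directly as an interaction, was called for 18 genes (0.097%), 14 with the more positive change in the duodenum, and 2141 genes had an unadjusted p under 0.05. This fit treats duodenum and ileum libraries as independent, and the labels do not say whether they came from the same mice. At week 3, number 1 of both regions had Xist, and numbers 2 and 3 of both had Ddx3y. Deviations from the group means of the same number in the 2 regions correlated at 0.486, -0.0318 and 0.267 at week 3. Different numbers had -0.492 to 0.265. At week 4 the same numbers had -0.0378, 0.127 and -0.136, and different numbers -0.175 to 0.172. These values do not settle whether a number is 1 mouse. With the sample number within each age as a block, 76 genes were called, 40 with the more positive change in the ileum and 36 in the duodenum. The count moved widely. It was 1, 3 and 6 without duodenum week 3 library 1, 2 or 3, and 11 and 2 without duodenum week 4 library 2 or 3. Without ileum week 3 library 1, 2 or 3 it was 8, 3 and 11, without ileum week 4 library 1 it was 493, and DESeq2 gave 401. Of the 21 genes of the first interferon list 20 were called higher in the ileum too, with a median of 2.27 against 3.60 in the duodenum. Its 3 genes among the 18 were Oasl1, Oas1a and Oas1g. Cmpk2 and Oas3, also given here, are outside that list. Oasl1 rose by 2.59 ± 0.17 on the log2 scale in the duodenum, from 25.2, 21.4 and 22 to 115, 143 and 157 CPM, and its ileal change was 0.46 ± 0.16 (interaction adjusted p = 0.00361). Cmpk2, a mitochondrial kinase induced by interferon, rose from 25.5, 31.3 and 24.5 to 79.7, 109 and 117 CPM in the duodenum and had an ileal change of -0.50 ± 0.21 (interaction adjusted p = 0.011). Oas3 rose from 8.78, 7.62 and 8.66 to 104, 143 and 136 CPM against 1.74 ± 0.21 in the ileum (interaction adjusted p = 0.0145), and Oas1a by 4.13 against 2.0 ± 0.22 (interaction adjusted p = 0.0192). In the other direction Upp1, a uridine phosphorylase, rose from 8.8, 12.3 and 11.6 to 81.3, 132 and 98 CPM in the duodenum, a log2 fold change of 3.25, and by 5.8 ± 0.31 in the ileum (interaction adjusted p = 0.0217). Trac, the T cell receptor constant region, had a log2 fold change of 0.21 ± 0.37 in the duodenum and rose by 3.59 ± 0.44 in the ileum (interaction adjusted p = 0.0412). For the lists of T cells, B cells and plasma cells as wholes the ileal medians were 3.97, 4.36 and 5.11 against 2.95, 3.67 and 3.19, and that difference was tested gene by gene only, with 1, 0 and 0 genes called by edgeR.

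**Figure D5:**
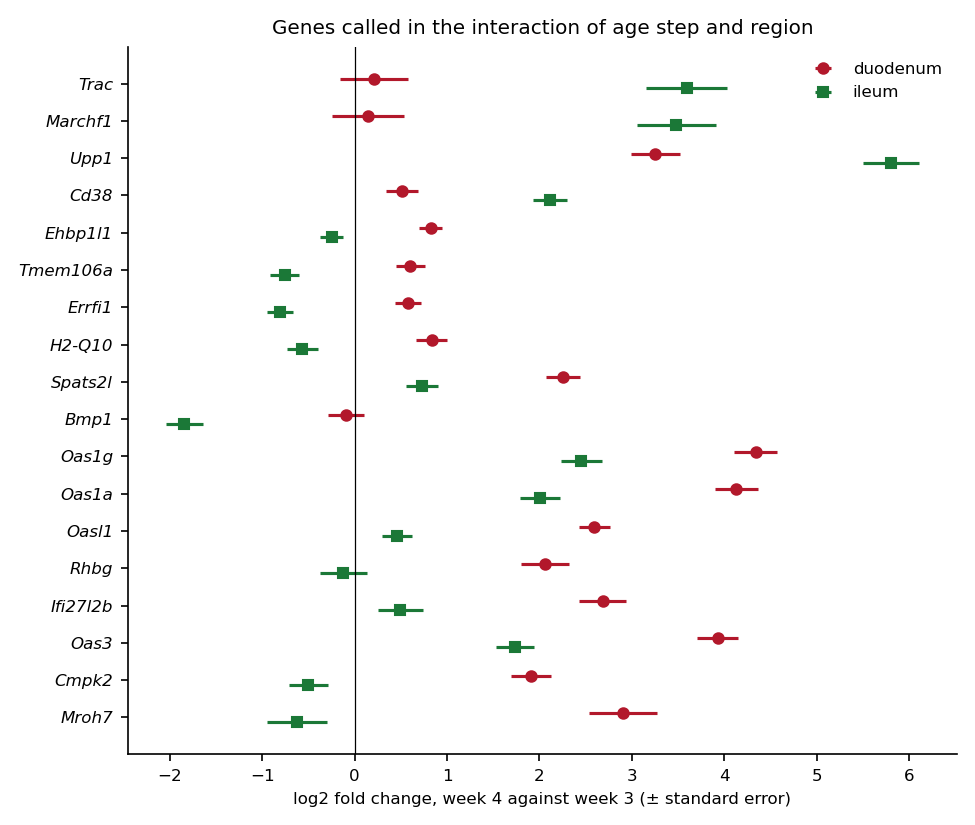
Log2 fold change of week 4 against week 3 (± standard error) in the duodenum and in the ileum for the 18 genes called in the interaction test, ordered by the difference. In 14 genes the duodenal change is the more positive, with Oas1a, Oas1g, Oas3 and Oasl1 among them.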

How the data were processed

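Whole-wall RNA of duodenum and ileum was sequenced as total RNA, per the labels' protocols. The submitters' processing notes name STAR 2.6.1d, Salmon 0.14.2, DESeq2 1.30.1 and the build mm10, with no role given. The main values are estimated counts per gene that the authors deposited for all 48 libraries, not normalized; they were rounded to whole numbers. The authors also deposited a normalized signal for 40 libraries, used only in alternatives. Whether counting used strand is not given in the sources used here, so overlapping antisense genes cannot be told apart, and near-identical paralogs may share reads. Intervals between libraries cover these libraries only, and totals of 31240661 to 59811501 counts make counting error small for all but the lowest genes.

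Genes were kept by filterByExpr over the 12 libraries of week 3 and week 4 in both regions, scaled by TMM and tested with edgeR 4.0.16 (R 4.3.3) by a robust quasi-likelihood fit of 4 group means with 8 residual degrees of freedom. P-values were adjusted by Benjamini-Hochberg over all 18561 genes, with calls at an adjusted p under 0.05. CPM are the values of edgeR's cpm function on the TMM-scaled library size. On simulated counts for these libraries, with 18140 genes in the fit, 38% of genes changed 2-fold in duodenum week 4, 82% changed 4-fold and 98% changed 8-fold were called. The changed genes were drawn only from those with a mean of at least 1 CPM, and the spread was the one estimated from these data. These shares therefore do not cover genes of lower level. Alternatives used DESeq2 1.42.0, limma 3.58.1 on log2(signal + 1) and log2(signal + 0.1), other filters, scalings, libraries and covariates, and each library left out.

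The members and the 54 gene lists were chosen with earlier results of these data known. Lists are described by counts and medians, with no test of a list. Named genes are the 12 largest rises and falls called without overlap at a mean log2 CPM of at least 1, the first 3 genes of each list and up to 4 called members with the smallest p, the 4 genes with the smallest interaction p in each direction, and the sex check genes. Some genes that this rule names are not reported here. Others are said to be chosen after their values were seen. Promoter sequences are from RefSeq on GRCm38.p6, searched over 250 bases before the start. Gene coordinates are from GENCODE M21.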

Additional observations from a re-analysis of the deposited data

Results flagged for a closer look

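For 8 genes the change from week 3 to week 4 differed between duodenum and ileum in the interaction test of edgeR, which is what brought them here. The ileal change was the larger for Upp1 (ileum minus duodenum 2.55 ± 0.37 on the log2 scale, adjusted p = 0.0217), which rose in both regions. It was larger too for Cd38, an NAD-consuming enzyme of immune cells (1.6 ± 0.25, adjusted p = 0.0341), for Trac (3.39 ± 0.57, adjusted p = 0.0412) and for Marchf1, a ubiquitin ligase that acts on MHC class II (3.34 ± 0.57, adjusted p = 0.0477). In the duodenum Cd38 stood at 52.5, 59.9 and 65.9 CPM (week 3) and 78.1, 85.4 and 91 CPM (week 4), and Marchf1 at 0.99, 1.4 and 1.83 CPM (week 3) and 1.32, 1.72 and 1.6 CPM (week 4), and neither passed there. The duodenal change was the larger for the interferon-induced genes Oasl1 (-2.13 ± 0.23, adjusted p = 0.00361), Cmpk2 (-2.41 ± 0.30, adjusted p = 0.011), Oas3 (-2.19 ± 0.29, adjusted p = 0.0145) and Oas1a (-2.12 ± 0.30, adjusted p = 0.0192). The region comparison called 18 genes in all, and 1 without duodenum week 3 library 1.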

How the results depend on the processing

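The count of 1868 genes for week 4 against week 3 in the duodenum became 4568 with the 40 libraries of the normalized tables, 3093 with the 6 duodenum libraries, 3055 and 2946 with limma at a pseudocount of 1 and 0.1, and 406 with the female libraries only, and ran from 916 to 1638 with 1 library left out. DESeq2 gave 2727. The share of rises among these calls, 66.3%, became 63.7% with RLE scaling, 60.4% with DESeq2, 41.2% with 40 libraries, 58.7% with 6 libraries, 63.4% with the replicate block, 56.4% with the sex index, 62.2% and 62.9% with limma and 63.5% with the female libraries only, and ran from 64.5% to 73.4% with 1 library left out. The ileal count of 2606 became 4753 with 40 libraries and 1527 with 6 libraries, and ran from 1627 to 2955. The interaction count of 18 became 401 with DESeq2, 120 without the low-count filter, 61 with all 48 libraries, 550 with 40 libraries, 76 with the replicate block and 36 with the sex index, and ran from 1 to 493. The causes were not tested, and fits with a library left out also tested another set of genes. The replicate block gave 1789 calls in the duodenum against 1868. Libraries of the same number at week 3 and week 4 had correlations of -0.119, 0.0226 and -0.032 in their deviations from the group means. Libraries of different numbers had -0.0893 to 0.116. With so few libraries per group these values cannot settle whether libraries of a number share a litter or batch. Of 135 named genes that were called, 65 passed in every alternative, and no named gene that was called changed direction.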
